A study of Mus musculus with 32 samples.

Results

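The matrix metalloproteinases Mmp8, Mmp9, Mmp12, Mmp13, Mmp14 and Mmp19, the disintegrin metalloproteinases Adam8 and Adam17, and the tissue inhibitors Timp1 and Timp2 were followed in BMDMs, macrophages grown from mouse bone marrow. These 10 genes were named as a list of secreted and membrane-bound metalloproteinases and their inhibitors, and all 10 were found among the 25067 genes of the count table and among the 11272 genes tested. RNA-seq covered 32 libraries. Wild-type cells (BMDM-WT) and Nur77-deficient cells (BMDM-Nur77-KO) were each sampled without LPS (0 h) and after 1, 5 and 18 h, with 4 libraries per group, at a dose of 100 ng/ml. LPS is the bacterial cell wall component that activates macrophages through Toll-like receptor 4. The cells came from male C57Bl6/J mice of 6 to 12 weeks. Nur77-KO mice lack Nur77, a nuclear receptor encoded by Nr4a1, throughout the body. They descend from a cross of mice with a loxP-flanked Nr4a1 gene and mice with Cre under the CMV promoter, the labels give their genotype as cre although the study describes the deficient mice as free of Cre, and wild-type littermates were the controls. Marrow cells of both genotypes were grown for 7 days in L929-conditioned medium, and the untreated 0 h cells received no LPS. The plates held 4 replicates per group and the number of animals behind them is not given in the sources used here, so p-values measure the spread between these samples, which may be technical.

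Matrix metalloproteinases are zinc-dependent endopeptidases that cleave collagens, elastin and other matrix proteins, as well as cytokines and chemokines. Most are secreted as inactive precursors, some, such as Mmp14, stay in the membrane, and the ADAM proteases shed ectodomains from the cell surface. TIMPs bind the active site of matrix metalloproteinases and block it. In macrophages the transcripts of several of these genes are known to respond to inflammatory stimuli, and AP-1, a dimer of Fos and Jun family proteins, is a classical activator of collagenase promoters.

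Totals per library over the genes used were 8742362 to 15780926 counts, with a median of 11847140. Levels are given as CPM, counts scaled to the library total and by TMM, and as RPKM where genes are compared with each other, since RPKM also divides by transcript length. All 7 macrophage markers looked at were detected in every group, with a summed level of 10848 to 18338 CPM per library, while the fibroblast and B cell lists summed to at most 1.88 and 1.71 CPM and the dendritic cell list to 0.761 to 22.1 CPM. Nr4a1 was at 19.6 ± 4.33 CPM without LPS in BMDM-WT and at 5.23 ± 1.18 CPM in BMDM-Nur77-KO, and after 1 h at 436 ± 60.2 and 190.1 ± 39.8 CPM (SD, n = 4). It was lower in BMDM-Nur77-KO at 0, 1 and 5 h, with log2 fold changes of -1.90, -1.20 and -1.55, but not at 18 h (adjusted p = 0.68). At 5 and 18 h no library had more than 9 counts of it. The table has 1 count per transcript and does not separate the exons that Cre removes from those it leaves. One library, replicate 1 of BMDM-Nur77-KO at 5 h, had a TMM factor of 0.712 against 0.788 to 0.833 in its group, and its counts differed from those of the others by a chi-square per degree of freedom of 53.8 to 115, against 5.41 to 23.2 among the others. Among the Nur77-KO libraries of 18 h, replicate 4 stood apart as well, with a TMM factor of 0.845 against 0.903 to 0.906 and a chi-square per degree of freedom of 48.6 to 59.9 against 3.70 to 7.74. To a lesser degree, so did replicate 3 among the WT libraries of 18 h. Its chi-square per degree of freedom was 16.2 to 23.9, against 1.92 to 4.17 among the others. Its TMM factor was 0.928 against 0.949 to 0.976. Values without the Nur77-KO libraries named here are given beside the differences they moved most.

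Mmp13, Mmp12 and Mmp8 are neighbours on chromosome 9, within 295973 bases (chr9:7272514-7568486, GRCm38). The sequences shown here are the 250 bases before the start of Mmp13 and before the downstream start of Mmp12 in RefSeq on GRCm38, since these were the 2 of 9 promoter windows, from 8 of the 10 genes, in which the AP-1 motif TGANTCA was found on either strand. Mmp9 and Mmp19 had no entry. Both windows shown lie on the plus strand and are written from 5′ to 3′ with the match in capitals, which starts 35 bases before the start of Mmp13 and 44 bases before that of Mmp12.
Mmp13, chr9:7272264-7272513: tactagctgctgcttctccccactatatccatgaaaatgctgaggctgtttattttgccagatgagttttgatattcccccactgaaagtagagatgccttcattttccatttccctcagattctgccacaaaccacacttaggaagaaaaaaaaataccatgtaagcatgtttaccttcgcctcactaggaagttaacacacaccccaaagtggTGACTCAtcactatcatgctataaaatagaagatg
Mmp12, chr9:7347124-7347373: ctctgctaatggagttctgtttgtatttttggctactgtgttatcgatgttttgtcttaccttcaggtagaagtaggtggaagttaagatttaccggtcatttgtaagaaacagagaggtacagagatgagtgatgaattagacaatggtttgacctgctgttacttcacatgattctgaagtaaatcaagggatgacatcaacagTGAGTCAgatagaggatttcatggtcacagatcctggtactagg

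Windows of 300 bases, 250 before to 50 after each start, held TGANTCA in 7.81% of 32851 promoters. The NF-kB motif was found in the upstream Mmp12 window alone, 129 bases before that start, and in 8.46% of all windows. AAAGGTCA, the NBRE to which Nur77 binds as a monomer, was in none of the 9 windows and in 1.51% of all. The motifs were searched on both strands and do not share letters with each other in these windows, and a match is a description of the letters only. Mmp12 has RefSeq transcripts from both starts, with mean counts of 25519 and 25367, so the start in use cannot be told apart from the table.

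The genotype differences called were those of Mmp9, Mmp12, Timp1, Mmp13 and Adam8. The first 4 were higher in BMDM-Nur77-KO at the times they were called, and Adam8 was lower, at 18 h alone. At 0 h, 4 of the 10 genes were called (edgeR's quasi-likelihood test at an adjusted p under 0.05, with a size limit of 0.58 on the log2 fold change in either direction), namely Mmp12, Mmp9, Timp1 and Mmp13, against 4.82% of all genes tested. At 1 h, 3 of 10 were called (Mmp9, Mmp12 and Timp1), against 2.87% of all genes, and at 5 h 2 of 10 (Mmp12 and Mmp9), against 8.69%. At 18 h, 5 of 10 were called, with Mmp12, Mmp9, Mmp13 and Timp1 higher and Adam8 lower, against 9.83% of all genes. The median log2 fold change of the 10 genes was 0.13, 0.09, 0.23 and 0.20 at 0, 1, 5 and 18 h, beside -0.03, 0.00, 0.02 and -0.01 over all genes tested.

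**Figure D1:**
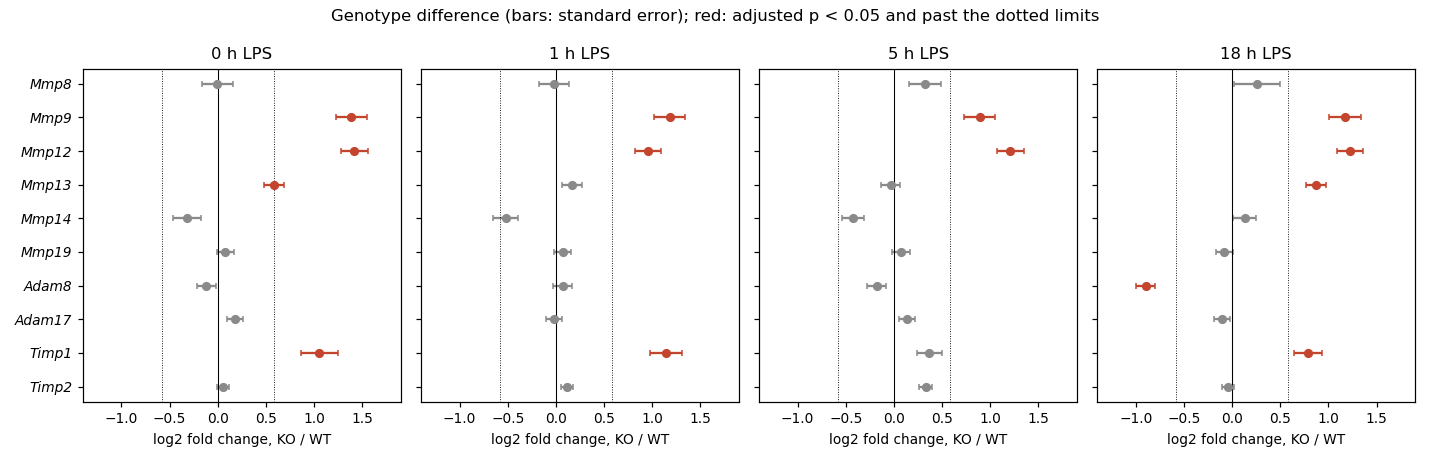
Log2 fold change of BMDM-Nur77-KO over BMDM-WT for each of the 10 genes (rows) at 0, 1, 5 and 18 h of LPS (panels), with the standard error as bars and the limits of 0.58 as dotted lines. Red points passed the test and the limit. Mmp9 and Mmp12 lie right of the limit in all 4 panels, and Adam8 lies left of it at 18 h only, at -0.89.

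Mmp12, the macrophage elastase, is encoded at chr9:7344397-7360461. At 0 h it was at 1318, 1457, 1276 and 1429 CPM in BMDM-WT and at 3657, 3668, 3882 and 3419 CPM in BMDM-Nur77-KO. Every Nur77-KO library was thus above every WT library, with a log2 fold change of 1.42 ± 0.14 (SE, adjusted p = 1.32e-08), which is 2.67-fold. At 1 h the WT libraries were at 1627 to 2125 CPM and the Nur77-KO libraries at 3003 to 3818 CPM, a difference of 0.96 ± 0.14 on the log2 scale (adjusted p = 1.52e-05). At 5 h the levels were 1543, 1509.8, 1614 and 1728 CPM in BMDM-WT and 5013, 3538, 3098 and 3126 CPM in BMDM-Nur77-KO. The groups again did not overlap, and the highest value belonged to replicate 1 of BMDM-Nur77-KO. The log2 fold change was 1.21 with this library (adjusted p = 1.94e-07) and 1.03 without it (adjusted p = 3.61e-07). At 18 h, when both genotypes were lower, the levels were 325, 373, 389.8 and 313 CPM in BMDM-WT and 725, 686, 733 and 1123 CPM in BMDM-Nur77-KO. The log2 fold change of 1.22 (adjusted p = 5.41e-08) became 1.03 without the library at 1123 CPM, replicate 4 (adjusted p = 1.66e-07).

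Mmp9, gelatinase B, which degrades denatured collagen and type IV collagen, is encoded at chr2:164940326-164955850. At 0 h its level was 315, 378, 389.7 and 444 CPM in BMDM-WT and 801, 1038, 1043 and 1104 CPM in BMDM-Nur77-KO. The groups were separate, with a log2 fold change of 1.38 ± 0.16 (adjusted p = 3.47e-07), or 2.61-fold. At 1 h BMDM-WT was at 397, 409, 557 and 552 CPM and BMDM-Nur77-KO at 906, 1068, 1186 and 1180.0 CPM (log2 fold change 1.18, adjusted p = 6.09e-06). At 5 h the difference was 0.89 ± 0.16 (adjusted p = 2.03e-04), between 295 to 369 CPM in BMDM-WT and 416 to 771 CPM in BMDM-Nur77-KO. The lowest of these Nur77-KO values, 416 CPM, was in replicate 1, and without it the log2 fold change was 1.04. At 18 h the levels were 61.3, 55.9, 50.3 and 59.3 CPM against 133, 135.5, 148 and 96.0 CPM, which is a log2 fold change of 1.18 (adjusted p = 2.36e-06). In this group the library highest for Mmp12, replicate 4, was the lowest for Mmp9.

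Markers of other cells moved with these differences in part. The summed level of 6 markers of osteoclasts (4 of them above 3 counts in some library), a cell type that shares precursors with macrophages and is known to express Mmp9, was 48.7 to 66.9 CPM in BMDM-WT and 98.9 to 123 CPM in BMDM-Nur77-KO at 0 h, and 63.7 to 80.4 against 108 to 126 CPM at 1 h. Within the list, Dcstamp, which mediates macrophage and osteoclast fusion, was at 37.6 and 86.3 CPM on average at 0 h, whereas the protease Ctsk was at 16.6 and 11.9 CPM. The defining marker Calcr had no count in BMDM-WT at 0, 1 and 5 h or in BMDM-Nur77-KO at 0 and 1 h. At 5 and 18 h the list overlapped between genotypes, with 89.6 to 102 against 55.7 to 118 CPM and 47.2 to 53.2 against 39.3 to 57.4 CPM. Dcstamp itself remained separate, at 16.0 to 20.15 against 20.2 to 38.6 CPM at 5 h and 1.28 to 1.65 against 3.73 to 4.41 CPM at 18 h (log2 fold change 1.55, adjusted p = 3.73e-05). The 9 neutrophil markers, 5 to 7 of them above 3 counts depending on the group, summed to 18.0 to 30.2 and 27.1 to 35.3 CPM at 0 h and to 28.2 to 37.9 and 43.5 to 52.4 CPM at 1 h in BMDM-WT and BMDM-Nur77-KO, with Ly6g at 0 in all WT libraries of 1 h. The sums overlapped at 0 h, and also at 5 h (32.5 to 45.6 against 40.4 to 48.7 CPM) and 18 h (18.4 to 22.7 against 20.8 to 24.7 CPM). The 5 dendritic cell markers overlapped at 0, 1 and 5 h, but at 18 h summed to 3.71 to 4.25 CPM in BMDM-WT and 7.59 to 9.92 CPM in BMDM-Nur77-KO, with 2 and 3 of them above 3 counts in some library. Of these, Ccr7, a chemokine receptor of migrating dendritic cells, was at 1.42 and 4.28 CPM on average, while Siglech was at 0 in all WT libraries and Flt3 in all Nur77-KO libraries of 18 h. The sum of the 7 macrophage markers went the other way at 18 h, as given with Adam8. The part of any of these lists in the differences of Mmp9, Mmp12, Timp1 and Mmp13 was not tested. In bulk RNA, a change in the number of cells of a type and a change in RNA per cell cannot be told apart.

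Timp1, a secreted inhibitor of most soluble MMPs, lies on the X chromosome (chrX:20870166-20874737), inside the span of Syn1 on the other strand without sharing exon bases with it. It was expressed at a low level without LPS, at 1.45, 1.97, 2.26 and 2.1 CPM in BMDM-WT and 2.91, 3.66, 4.59 and 5.00 CPM in BMDM-Nur77-KO, which rests on 19 to 38 and 32 to 63 counts. The groups did not overlap and the log2 fold change was 1.05 ± 0.19 (adjusted p = 2.77e-04). At 1 h it was at 2.84, 2.81, 3.47 and 4.16 CPM against 8.36, 5.93, 6.21 and 8.54 CPM, a log2 fold change of 1.14 (adjusted p = 2.36e-05). At 5 h the genotypes overlapped, with 26.8 to 33.4 CPM in BMDM-WT and 32.5 to 44.3 CPM in BMDM-Nur77-KO, and the log2 fold change of 0.37 was under the size limit although the adjusted p was 0.0431. Without replicate 1 of BMDM-Nur77-KO the log2 fold change was 0.33 and did not pass the test (adjusted p = 0.111). At 18 h the 4 WT libraries, at 9.04 to 12.1 CPM, were again all below the Nur77-KO libraries, at 16.9 to 20.6 CPM (difference of 0.79 on the log2 scale, adjusted p = 9.76e-05). The direction was therefore that of Mmp9 and Mmp12 at each of these times.

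Mmp13, collagenase 3, which cleaves fibrillar collagen, is encoded at chr9:7272514-7283333. At 0 h the levels were 39.8, 38.0, 38.2 and 33.9 CPM in BMDM-WT and 60.3, 55.9, 58.8 and 49.8 CPM in BMDM-Nur77-KO. These groups did not overlap, but the log2 fold change of 0.58 ± 0.11 (adjusted p = 3.12e-04) lay at the size limit and was 0.54 to 0.56 when BMDM-Nur77-KO replicate 1 or 3 or BMDM-WT replicate 4 was left out. At 1 and 5 h the groups overlapped and the log2 fold changes were 0.17 (adjusted p = 0.455) and -0.04 (adjusted p = 0.824). At 18 h Mmp13 was at 261, 303, 312 and 244 CPM in BMDM-WT and at 505, 443, 472 and 625 CPM in BMDM-Nur77-KO, with a log2 fold change of 0.87 ± 0.10 (adjusted p = 1.32e-07). Without the library at 625 CPM it was 0.76.

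Adam8, a membrane protease of myeloid cells, was the only one of the 10 genes called lower in BMDM-Nur77-KO, and at 18 h alone. It is encoded on the minus strand at chr7:139978932-139995207. At 18 h it was at 549, 664, 488 and 543 CPM in BMDM-WT and at 294, 303, 324 and 285 CPM in BMDM-Nur77-KO. All Nur77-KO libraries were below all WT libraries, with a log2 fold change of -0.89 ± 0.10 (adjusted p = 3.79e-08), which is 53.8% of the WT level. At 0, 1 and 5 h the log2 fold changes were -0.12, 0.07 and -0.18 and the groups overlapped (adjusted p = 0.461, 0.823 and 0.18), the last being -0.05 with Nur77-KO replicate 1 left out. At 18 h the summed level of the 7 macrophage markers was also lower in BMDM-Nur77-KO, at 10848 to 12309 CPM against 13770 to 14363 CPM. The sum does not show the direction of each marker. Among the markers, the integrin Itgam was at 511 against 798 CPM and Csf1r, the receptor for macrophage colony-stimulating factor, at 744 against 1146 CPM on average. Both were picked after their values were seen, and the direction of the other markers is not given here. The sums were separate at 5 h too, at 12785 to 14892 against 15016 to 16353 CPM, and overlapped at 0 and 1 h. Their part in the difference of Adam8 was not tested.

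The remaining 5 genes were not called between genotypes at any time. Mmp14, a membrane-anchored collagenase that also activates pro-Mmp2 (chr14:54431598-54442456), was at 20.6 to 24.7 CPM in BMDM-WT and 13.1 to 16.9 CPM in BMDM-Nur77-KO after 1 h of LPS, and at 662 to 706 and 449 to 546 CPM at 5 h. These groups did not overlap, with log2 fold changes of -0.52 (adjusted p = 0.012) and -0.43 (adjusted p = 0.0108) that were under the size limit, the latter being -0.37 when the lowest Nur77-KO library, replicate 1, was left out. At 18 h Mmp14 was at 397 to 435 CPM and 434 to 469 CPM, with a log2 fold change of 0.13 (adjusted p = 0.476). Timp2, which inhibits MMPs and takes part with Mmp14 in the activation of pro-Mmp2 (chr11:118301061-118355411), was at 251 to 296 CPM in BMDM-WT and 327 to 359 CPM in BMDM-Nur77-KO at 5 h, a log2 fold change of 0.33 ± 0.06 (adjusted p = 4.91e-04). At 0, 1 and 18 h its log2 fold change was 0.06, 0.11 and -0.04.

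Adam17, the sheddase of TNF (chr12:21323509-21373632), had log2 fold changes of 0.18, -0.02, 0.13 and -0.11 at 0, 1, 5 and 18 h. At 0 h its WT libraries, at 269.8 to 297 CPM, did not overlap with the Nur77-KO libraries, at 301 to 331 CPM, but the adjusted p was 0.168. Mmp8, the neutrophil collagenase (chr9:7558429-7568486), was at 7.46 to 9.26 CPM in BMDM-WT and 7.94 to 8.64 CPM in BMDM-Nur77-KO at 0 h, and its log2 fold change was between -0.02 and 0.32 over the 4 times. The highest, at 5 h, was 0.15 without replicate 1 of BMDM-Nur77-KO. Its 18 h value of 0.26 was less settled. With other settings or a library left out (14 alternatives) it ranged from 0.10 to 0.61, the upper end past the size limit. None of these passed the test (lowest adjusted p = 0.0614). In BMDM-WT after 18 h, replicate 3 was highest for Mmp8, at 2.78 CPM against 1.10 to 1.62 CPM. Mmp19, which cleaves basement membrane proteins (chr10:128790910-128800827), had log2 fold changes of 0.08, 0.07, 0.07 and -0.08. Of the exon bases of its transcript, 23.2% are shared with Tmem198b on the other strand, and 6.82% of those of Adam17 with Iah1. Whether the counting used the strand is not given in the sources used here, so reads there cannot be told apart.

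**Figure D2:**
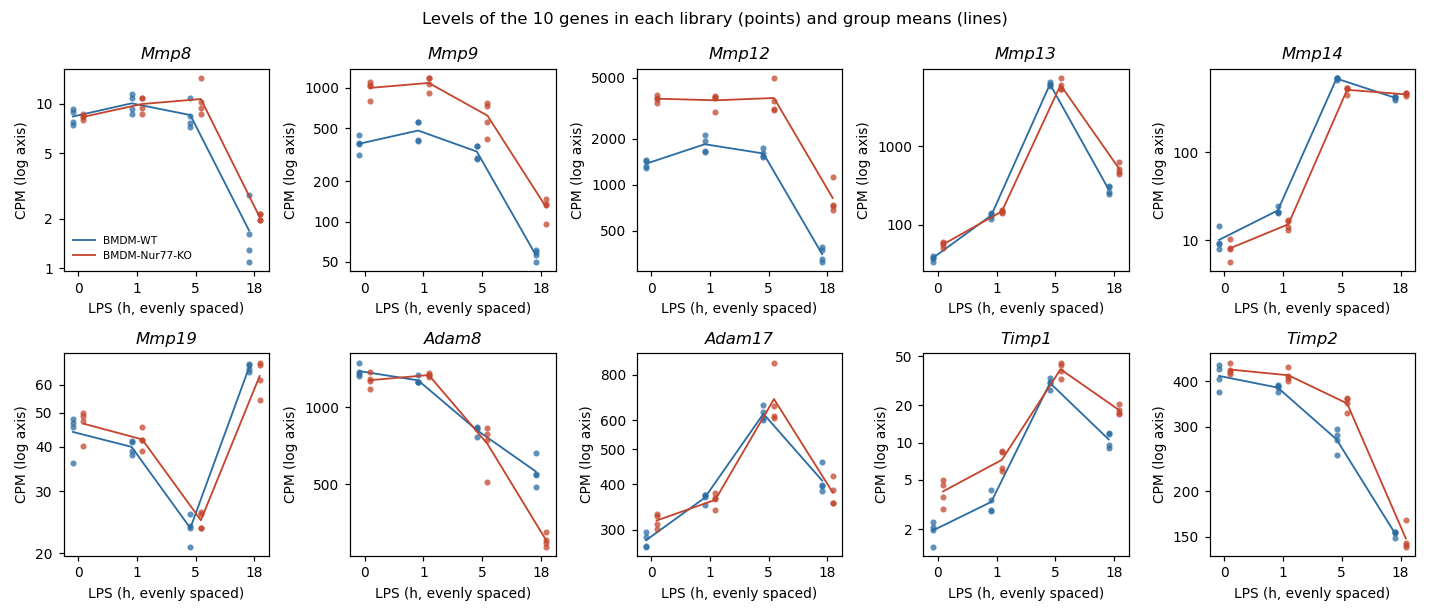
CPM of each of the 10 genes on a log axis (panels, each with its own axis) at 0, 1, 5 and 18 h of LPS, with 1 point per library and lines through the means of the 4 libraries of BMDM-WT (blue) and BMDM-Nur77-KO (red). Mmp9 and Mmp12 of BMDM-Nur77-KO lie above those of BMDM-WT at all 4 times, Mmp13 has its highest levels at 5 h in both genotypes, and Adam8 separates at 18 h.

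LPS changed most of these genes by 18 h, and the order in time differed between them. Calls for LPS used the same threshold on p and a size limit of 1, and the comparisons of a genotype share its 0 h libraries. At 1 h, 2 of 10 genes were called in BMDM-WT (Mmp13 and Mmp14, both higher), against 5.19% of all genes, and 1 of 10 in BMDM-Nur77-KO (Mmp13), against 4.53%. At 5 h, Mmp13, Mmp14, Timp1 and Adam17 were called in both genotypes, all higher, against 33.7% of all genes in BMDM-WT and 32.6% in BMDM-Nur77-KO. These 4 of 10 are a share near that of all genes. At 18 h, 8 of 10 were called in both, with Mmp14, Mmp13 and Timp1 higher and Mmp9, Mmp8, Mmp12, Timp2 and Adam8 lower, against 27.4% and 31.8% of all genes. The median absolute log2 fold change of the 10 genes at 18 h was 2.13 in BMDM-WT and 2.12 in BMDM-Nur77-KO, beside 0.54 and 0.61 over all genes tested.

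**Figure D3:**
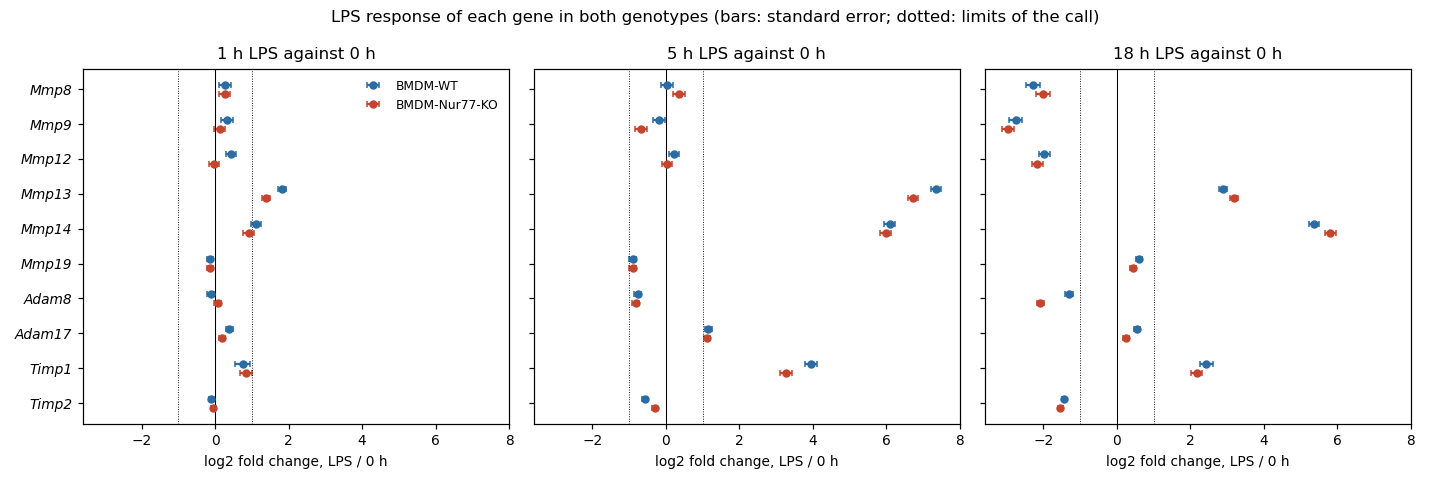
Log2 fold change of LPS over 0 h for the 10 genes (rows) after 1, 5 and 18 h (panels) in BMDM-WT (blue) and BMDM-Nur77-KO (red), with the standard error as bars and the limits of 1 as dotted lines. Mmp13 and Mmp14 lie at 5.99 to 7.35 at 5 h in both genotypes, and 5 genes lie left of the lower limit at 18 h.

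Mmp13 had the largest LPS response of the 10 genes at 5 h. In BMDM-WT it went from 37.5 ± 2.54 CPM at 0 h to 131 ± 9.34 CPM at 1 h, 6111 ± 304 CPM at 5 h and 280.0 ± 32.6 CPM at 18 h (SD, n = 4). The level at 5 h was 163-fold above 0 h in BMDM-WT (log2 fold change 7.35 ± 0.14, adjusted p = 6.35e-28) and 106-fold in BMDM-Nur77-KO (6.73 ± 0.13, adjusted p = 1.78e-27). The 5 h level itself was 5964 ± 987 CPM in BMDM-Nur77-KO, with libraries from 5276 to 7376 CPM around those of BMDM-WT, at 5809 to 6533 CPM, and the 0 h level was 56.2 ± 4.63 CPM. The response was thus smaller in BMDM-Nur77-KO by 0.62 ± 0.15 on the log2 scale (interaction, adjusted p = 0.0149), and by 0.74 without the library at 7376 CPM, replicate 1. It was the only 1 of the 10 genes to pass this test at 5 h, against 3.11% of all genes, and DESeq2's Wald test called Timp2 as well.

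Mmp14 was 68.4-fold above 0 h at 5 h in BMDM-WT and 63.4-fold in BMDM-Nur77-KO, beside the 163-fold and 106-fold of Mmp13. Its mean was 10.1, 21.9, 691 and 417 CPM in BMDM-WT and 8.08, 15.2, 515 and 457 CPM in BMDM-Nur77-KO over the 4 times. The log2 fold changes at 1, 5 and 18 h were 1.12, 6.10 and 5.37 in BMDM-WT and 0.91, 5.99 and 5.81 in BMDM-Nur77-KO. The 1 h value of BMDM-Nur77-KO was under the size limit, and was 1.05 without replicate 4 of its 0 h libraries, which span 5.72 to 10.5 CPM. While Mmp13 at 18 h was at 4.58% of its 5 h mean in BMDM-WT, Mmp14 was at 60.4%, and in BMDM-Nur77-KO these shares were 8.57% and 88.7%.

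Timp1 rose in BMDM-WT from 1.94 CPM at 0 h to 30.4 ± 2.72 CPM at 5 h and 10.6 ± 1.5 CPM at 18 h, 15.5-fold and 5.42-fold. In BMDM-Nur77-KO it rose from 4.04 CPM to 39.2 ± 5.25 CPM and 18.3 ± 1.70 CPM, 9.64-fold and 4.51-fold. The difference of these responses at 5 h was -0.69 on the log2 scale with an unadjusted p of 0.00622, and did not pass adjustment over all genes (adjusted p = 0.113). Adam17 rose 2.23-fold at 5 h in BMDM-WT, from 281 ± 13.0 to 625 ± 27.5 CPM. In BMDM-Nur77-KO the 5 h libraries were at 864, 655, 610.2 and 616 CPM, and the log2 fold change of 1.11 was 0.98, under the limit, without the library at 864 CPM, replicate 1.

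The other inhibitor, Timp2, moved the other way from Timp1. It fell to 37.0% of its 0 h level at 18 h in BMDM-WT, from 374 to 444 CPM down to 149 to 155 CPM, and to 34.5% in BMDM-Nur77-KO. At 5 h it lay between these levels, with log2 fold changes of -0.58 and -0.31 that were under the size limit.

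Mmp9, Mmp12 and Mmp8 fell by 18 h and were not called at 1 or 5 h in either genotype. Mmp9 was at 14.85% of its 0 h level at 18 h in BMDM-WT and at 12.85% in BMDM-Nur77-KO, Mmp12 at 25.55% and 22.3%, and Mmp8 at 20.5% and 24.7%. At 1 h Mmp12 had a log2 fold change of 0.42 in BMDM-WT (adjusted p = 0.0258), under the size limit, and of -0.04 in BMDM-Nur77-KO (adjusted p = 0.959). At 5 h in BMDM-Nur77-KO, Mmp9 had a log2 fold change of -0.69 (adjusted p = 3.36e-04), under the size limit, whereas Mmp12 did not pass the test at 5 h in either genotype. Mmp8 was at 0.35 there (adjusted p = 0.0482), under the limit, and at 0.185 without replicate 1 (adjusted p = 0.286). Mmp8 had 12 to 32 counts per library at 18 h, and its levels of 1.10 to 2.78 CPM in BMDM-WT and 1.96 to 2.13 CPM in BMDM-Nur77-KO rest on few reads.

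Adam8 was at 1382 ± 76.1 CPM at 0 h, 813 ± 33.5 CPM at 5 h and 561 ± 74.3 CPM at 18 h in BMDM-WT, and its difference from 0 h was called at 18 h. In BMDM-Nur77-KO it went from 1273 ± 82.4 to 718 ± 143 and 302 ± 16.5 CPM. At 5 h, replicate 1 was at 510.3 CPM and the other 3 libraries at 744 to 832 CPM. At 18 h the log2 fold change was -1.30 ± 0.10 in BMDM-WT and -2.08 ± 0.10 in BMDM-Nur77-KO, and the difference of -0.78 ± 0.14 passed the interaction test (adjusted p = 2.48e-04). Of the 10 genes it was the only one to do so at 18 h, a share near the 9.39% of all genes tested. At 1 h the interaction test called 0 of the 10 genes, against 0.071% of all, with 2 of them at an unadjusted p under 0.05 (Mmp12 and Mmp13). DESeq2's Wald test also called 0, whereas a fit restricted to the 4 groups concerned called these 2.

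Mmp19 followed another course. It was at 36.1 to 48.1 CPM at 0 h, 20.9 to 25.8 CPM at 5 h and 65.3 to 68.8 CPM at 18 h in BMDM-WT, and these 3 ranges did not overlap. The log2 fold changes of -0.90 at 5 h (adjusted p = 4.51e-10) and 0.61 at 18 h (adjusted p = 4.00e-07) were under the size limit. In BMDM-Nur77-KO they were -0.91 and 0.45, with 23.6 to 26.1 CPM at 5 h and 54.5 to 69.4 CPM at 18 h.

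The order of the 8 group means showed which conditions were distinct for each gene. For Mmp9 and Mmp12 the Nur77-KO groups at 0 and 1 h were among the highest 3 and the WT group at 18 h was the lowest, and the ranges of the 2 groups at 18 h overlapped neither with each other nor with the next group above. For Mmp13 the WT and Nur77-KO groups at 5 h came first and overlapped, followed by Nur77-KO and then WT at 18 h, which were separate from each other and from both 1 h groups. For Mmp14 the WT group at 5 h was above all others, while Nur77-KO at 5 h overlapped with Nur77-KO at 18 h. For Timp1 both 5 h groups overlapped at the top, and Nur77-KO at 0 h overlapped with WT at 1 h. For Timp2 and Adam8 the 4 groups at 0 and 1 h formed 1 overlapping run at the top, and for Adam17 the groups at 0 h were lowest.

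Compared per kilobase, the 10 genes covered a wide range. At 0 h in BMDM-WT, Mmp12 was at 944 ± 59.6 RPKM and Adam8 at 443 ± 24.4 RPKM, followed by Mmp9 at 120.2 ± 16.6, Timp2 at 112 ± 8.45, Adam17 at 63.2 ± 2.92, Mmp13 at 14.0 ± 0.95, Mmp19 at 13.0 ± 1.61, Mmp14 at 3.90 ± 1.12, Mmp8 at 3.44 ± 0.36 and Timp1 at 2.20 ± 0.40 RPKM (SD, n = 4). The ranges of neighbours in this order overlap within their SD for Mmp9 and Timp2, for Mmp13 and Mmp19 and for Mmp14 and Mmp8. At 5 h in BMDM-WT, Mmp13 was at 2286 RPKM and Mmp12 at 1101 RPKM, and in BMDM-Nur77-KO they were at 2231 and 2544 RPKM. The length of Mmp12 in this calculation is 1452 bases, and with that of its other start, 3607 bases, it would be at 379.8 RPKM at 0 h in BMDM-WT, below Adam8, and at 1024 RPKM at 5 h in BMDM-Nur77-KO, below Mmp13. Timp1 stayed below Timp2 in all 8 group means, at 34.4 against 74.8 RPKM at 5 h in BMDM-WT and at 44.4 against 93.8 RPKM in BMDM-Nur77-KO.

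**Figure D4:**
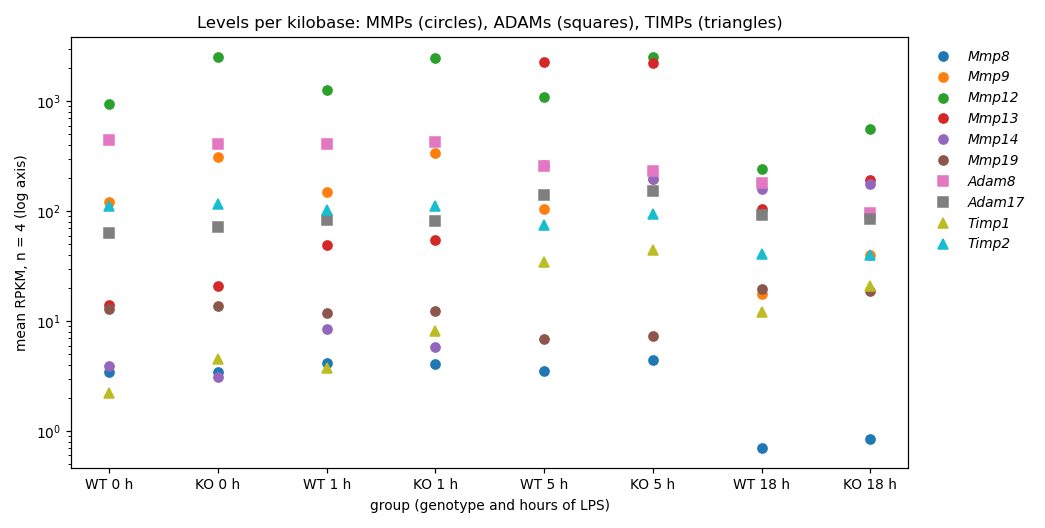
Mean RPKM of the 4 libraries of each group (log axis) for the 10 genes, by genotype and hours of LPS, with circles for MMPs, squares for ADAMs and triangles for TIMPs. With a length of 1452 bases, Mmp12 is highest in all groups but the WT group at 5 h, where Mmp13 is at 2286 RPKM, and Mmp8 is lowest at 18 h, at 0.699 and 0.843 RPKM.

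The other genes of these families were taken from a list of 61 further MMPs, ADAMs, ADAMTS proteases, inhibitors, activators and sheddase cofactors, of which 22 were tested. None of the 3 other inhibitors on the list was among those tested. Between genotypes, 2 of 22 were called at 0 h (both higher in BMDM-Nur77-KO), 1 at 1 h (higher), 2 at 5 h (both lower) and 6 at 18 h (all higher), against the shares of 4.82%, 2.87%, 8.69% and 9.83% of all genes. The 2 of 22 at 5 h are a share near the background. Those at 0 h were Plaur, the urokinase receptor (log2 fold change 0.71), and Tspan5, a tetraspanin that escorts Adam10 (0.82). Tspan5 was also higher at 1 h (0.70) and 18 h (0.86), and Plaur at 18 h (1.10). At 5 h Tspan5 was not called, although its groups did not overlap (12.0 to 15.7 CPM in BMDM-WT and 19.3 to 22.0 CPM in BMDM-Nur77-KO). Its log2 fold change there was 0.52 without replicate 1 of BMDM-Nur77-KO (adjusted p = 2.36e-04), under the size limit. At 5 h, Mmp25, another membrane-anchored MMP, was lower, with a log2 fold change of -0.64 (46.1 and 29.5 CPM), and so was Rhbdf2, the partner of Adam17 that brings it to the cell surface (-0.60, 268 and 176 CPM), while Adam17 itself was not. Both calls rest on replicate 1 of BMDM-Nur77-KO, which was lowest for both genes, at 20.0 and 78.3 CPM. Without it the log2 fold changes were -0.50 (adjusted p = 0.00831), under the size limit, and -0.36 (adjusted p = 0.103), and Tspan33 was called higher in their place (0.61). Rhbdf2 also lost its call without replicate 2 of BMDM-Nur77-KO or replicate 1, 2 or 3 of BMDM-WT, with adjusted p-values of 0.0523 to 0.0607. At 18 h, the tetraspanin Tspan33 was higher by 1.45 on the log2 scale, and the ADAMTS proteases Adamts4 and Adamts1 by 1.65 and 1.43. The last 2 had at most 28 counts in any library at 18 h. LPS called 5, 15 and 13 of the 22 genes at 1, 5 and 18 h in BMDM-WT and 3, 16 and 12 in BMDM-Nur77-KO, against 5.19%, 33.7% and 27.4% of all genes and 4.53%, 32.6% and 31.8%. The response differed between genotypes for 3 at 18 h, among them Adamts1 and Tspan33, by edgeR's test, against 9.39% of all genes. At 1 and 5 h it was called for 0 of them, against 0.071% and 3.11%, with 2 and 4 at an unadjusted p under 0.05.

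The genes with the most similar levels over the 32 libraries are given as a description, by Pearson's r of log2 CPM. The points share the 8 groups and are not independent. Fn1, fibronectin, was closest to Mmp9 (r = 0.983) and second for Mmp12 (0.975, after Pgrmc1 at 0.980), and Itgax, which encodes CD11c, was second for Mmp9 (0.980). Mmp14 was closest to Rsad2 (0.995), an interferon-induced gene, and N4bp1 (0.993), Mmp13 to Cav1 (0.990) and Lrch1 (0.990), and Timp1 to Tnfsf15 (0.979) and Crlf3 (0.977). For Timp2 they were Prune2 (0.989) and Sort1 (0.988), for Adam8 Cers5 (0.985) and Akr1b8 (0.978), for Adam17 B3gnt2 (0.978) and Wtap (0.978), for Mmp19 Sephs2 (0.974) and Sec14l1 (0.973), and for Mmp8 Dhrs9 (0.971) and Pspc1 (0.970). Among the 10 genes, the highest values were those of Mmp13 with Adam17 (0.960), Mmp13 with Timp1 (0.945) and Mmp9 with Mmp12 (0.944), and the lowest that of Mmp14 with Adam8 (-0.797).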

How the data were processed

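RNA-seq of both BMDM genotypes over the LPS time course was analysed (32 libraries, 4 per group). The authors deposited expected counts of tags per RefSeq transcript, not normalized. Reads had been aligned to mm10 with HISAT2 (2.1.0; CASAVA 1.8.2 is also in the submitters' processing notes), filtered on mapping quality with SAMtools and counted with HOMER, and values are multiples of 0.5, with 28.6% not whole. Other experiments of the study were not analysed here.

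Of 42361 transcripts, 42203 were named through RefSeq and 65 through GENCODE. The 93 without a name, with 0.233% to 1.37% of tags per library, were left out. Isoforms share reads, so 1 transcript, that of highest mean, stood for each of 25067 genes, with counts rounded to whole numbers. With edgeR 4.0.16 in R 4.3.3, counts were TMM-scaled and tested by quasi-likelihood in 1 model with 8 group means, for the 11272 genes whose mean RPKM exceeded 1 in any group. P-values were adjusted over these by Benjamini-Hochberg. Depth limits precision most for Mmp8 and Timp1, and TMM assumes that most genes do not change. Counting intervals were not used. Scripts were tested on simulated data.

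The 10 genes, the family and marker lists and the rule for naming other genes (all 10, Nr4a1, family genes called between genotypes, and the 2 genes of highest correlation with each) were chosen with earlier results of these data known. Ctsk, Dcstamp and other markers named singly were chosen after their values were seen. Replicate numbers did not pair the libraries. The alternatives were DESeq2 1.42.0, its size factors, filterByExpr, a fit restricted to the groups concerned, a replicate block, summed transcripts, and leaving out each library, which for the family genes was chosen after seeing the data. No pair of libraries agreed within sampling noise (chi-square per degree of freedom at least 1.92). Promoter windows came from RefSeq on GRCm38, and protein sequences were not used here. Values of 1 family gene are not reported here; counts of the family list include it.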

Additional observations from a re-analysis of the deposited data

Results flagged for a closer look

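Among the 80 groups of 4 libraries examined for the 10 genes, 6 had a library whose gap to its group exceeded Dixon's 95% critical value, and chance alone gives about 1 in 20. Mmp12 was at 3003 CPM in replicate 1 of BMDM-Nur77-KO at 1 h, with the others at 3706 to 3818 CPM, and at 1123 CPM in replicate 4 of BMDM-Nur77-KO at 18 h, with the others at 686 to 733 CPM. Mmp14 was at 24.7 CPM in replicate 2 of BMDM-WT at 1 h (others 20.6 to 21.1 CPM) and at 449 CPM in replicate 1 of BMDM-Nur77-KO at 5 h (others 531 to 546 CPM). Adam8 was at 1332 CPM in replicate 3 of BMDM-WT at 1 h (others 1248 to 1254 CPM), and Timp2 at 167 CPM in replicate 4 of BMDM-Nur77-KO at 18 h (others 141 to 144 CPM). The response to LPS differed between the genotypes by interaction tests for Mmp13 at 5 h (-0.62 on the log2 scale, BMDM-Nur77-KO minus BMDM-WT) and for Adam8 at 18 h (-0.78). The 1 of 10 genes at 18 h is a share near the 9.39% of all genes tested.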

How the results depend on the processing

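Of the 64 differences of single genes with an adjusted p under 0.05, 43 of them called, all kept their direction and their side of the limits under the 6 settings other than leaving out a library (384 values). The replicate block was 1 of these: with it all 13 counts of called genes were as in the fit without it (4, 3, 2 and 5 for genotype at 0, 1, 5 and 18 h), although replicate numbers gave no sign of pairing (same-numbered deviations correlated at -0.786 to 0.556 and 2 of 32 libraries correlated best with their own number). The response at 1 h was called for 2 of the 10 genes (Mmp12 and Mmp13) in place of 0 when the fit was restricted to the groups concerned, and at 5 h for 2 (Mmp13 and Timp2) in place of 1 by DESeq2's Wald test; the cause was not tested. DESeq2 called 37 genes of the whole table for the response at 1 h, and edgeR 8. With each library left out in turn, genotype counts were 3 to 4 at 0 h, 3 to 3 at 1 h, 2 to 2 at 5 h and 5 to 5 at 18 h. LPS counts at 1, 5 and 18 h were 2, 4 and 8 throughout in BMDM-WT and 1 to 2, 3 to 4 and 8 in BMDM-Nur77-KO. Response counts were 0, 1 to 2 (2 without BMDM-WT replicate 2 of 0 h, adding Timp2) and 1 to 2 (2 without BMDM-Nur77-KO replicate 4 of 0 h, adding Mmp14). Of 528 such values for single genes, 523 kept their side, 4 fell under the limit (Mmp13 at 0 h 3 times, Adam17 at 5 h) and 1 passed it (Mmp14 at 1 h). With each library left out, an alternative chosen after seeing the data, the family genes called between genotypes were 2 to 3 of 22 at 0 h, 1 at 1 h, 1 to 3 at 5 h and 6 to 7 at 18 h, and calls were lost at 5 h only (Mmp25 once, Rhbdf2 5 times). Median shifts by DESeq2's size factors were at most 0.0873 on the log2 scale. Counts of 12 to 38 limit Mmp8 at 18 h and Timp1 at 0 h in BMDM-WT.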
